A study of Mus musculus with 17 samples.

Results

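Chemokines are small secreted proteins that recruit and position leukocytes, and 9 of their genes were followed through ischemia and reperfusion of the mouse brain: Ccl2, Ccl3, Ccl4, Ccl7, Cxcl1, Cxcl2, Cxcl10, Cxcl12 and Cx3cl1. They were taken by gene symbol in the platform annotation of the array. They made up 9 of the 8252 genes with a symbol of their own, and 13 of 12488 probe sets. Cxcl1 and Cx3cl1 had 2 probe sets each, Cxcl12 had 3, and the other members had 1. By class, 4 members are CC chemokines and 4 are CXC chemokines, while Cx3cl1 is the CX3C chemokine.

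RNA from the white and grey matter supplied by the middle cerebral artery was measured on 17 oligonucleotide arrays. The 12 pooled arrays each carried RNA of 6 brains, in 4 groups of 3. Control pools came from mice given saline and drug control pools from mice given AEOL 10150, a catalytic antioxidant. There were also ischemic pools with no drug named and treated ischemic pools given AEOL 10150 intravenously. The other 5 arrays each carried 1 treated ischemic brain. Control and drug control tissue was taken 6 h after the injection, and all ischemic tissue once a 1 h ischemia had been followed by reperfusion for 6 h. The labels used here name no strain, sex, age, dose or sham operation, so the controls differ from the ischemic groups also in whatever the operation itself did.

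Ligands of these families share a fold and signal through receptors coupled to G proteins on the arriving cell. Ccl2 and Ccl7 attract monocytes through Ccr2, Ccl3 and Ccl4 attract macrophages and other leukocytes, Cxcl1 and Cxcl2 attract neutrophils through Cxcr2, and Cxcl10, an interferon-induced ligand, attracts activated T cells through Cxcr3. Cxcl12, which binds Cxcr4 and Ackr3, and Cx3cl1, a membrane-anchored neuronal ligand for Cx3cr1 on microglia, are made in brain without injury. In injured brain the inducible ligands come from glia, endothelium and arriving leukocytes, and many of their genes are targets of NF-kB.

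The stretches of DNA just upstream of the transcription starts of the inducible members are shown because several of these genes were high together in the ischemic pools. RefSeq windows of 250 bases before the start (GRCm38.p6, printed 5′ to 3′ on the gene's own strand) were matched by symbol for 6 of the 9 members: Ccl3, Cxcl1, Cxcl2, Cxcl10, Cxcl12 and Cx3cl1. Capitals mark matches, searched on both strands, to the kappa B consensus (the site bound by NF-kB), to GAAANNGAAA (the core of the interferon-stimulated response element) and to TGANTCA (the AP-1 site). The windows lie at chr5:90890995-90891244, plus strand, for Cxcl1, chr5:90903649-90903898, plus strand, for Cxcl2, chr5:92348890-92349139, minus strand, for Cxcl10 and chr11:83649379-83649628, minus strand, for Ccl3.
Cxcl1: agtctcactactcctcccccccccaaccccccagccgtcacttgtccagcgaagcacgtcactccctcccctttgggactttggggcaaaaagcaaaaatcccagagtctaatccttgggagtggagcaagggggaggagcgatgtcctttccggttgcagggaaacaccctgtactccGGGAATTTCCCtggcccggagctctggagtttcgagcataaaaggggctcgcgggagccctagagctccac
Cxcl2: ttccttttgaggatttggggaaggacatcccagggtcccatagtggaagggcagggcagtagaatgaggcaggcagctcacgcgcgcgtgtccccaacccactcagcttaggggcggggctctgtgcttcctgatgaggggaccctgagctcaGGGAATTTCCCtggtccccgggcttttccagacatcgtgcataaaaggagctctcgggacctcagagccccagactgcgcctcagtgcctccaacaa
Cxcl10: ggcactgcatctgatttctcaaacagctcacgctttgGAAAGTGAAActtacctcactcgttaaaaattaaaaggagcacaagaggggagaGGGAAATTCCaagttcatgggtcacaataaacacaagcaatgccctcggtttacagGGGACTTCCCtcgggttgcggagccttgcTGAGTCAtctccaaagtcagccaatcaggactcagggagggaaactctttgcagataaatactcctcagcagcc
Ccl3: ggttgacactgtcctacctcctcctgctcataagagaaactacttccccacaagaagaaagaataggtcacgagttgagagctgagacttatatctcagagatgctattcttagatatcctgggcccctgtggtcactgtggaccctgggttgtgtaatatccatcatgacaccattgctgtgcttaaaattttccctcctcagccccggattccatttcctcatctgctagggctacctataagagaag

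Cxcl1 and Cxcl2 held the same kappa B letters, GGGAATTTCC, at -71 to -62 and at -97 to -88 from the start, and the opposite strand matched the consensus 1 base further on, so each run of capitals is a pair of overlapping matches. Of 32851 RefSeq windows of this length, 28 (0.0852%) held GGGAATTTCC and 3.9% held a match to the kappa B consensus. Cxcl10 had kappa B matches at -159 to -150 and at -103 to -94, GAAAGTGAAA at -213 to -204 and TGAGTCA at -74 to -68. GAAANNGAAA was in 2.98% of all windows and TGANTCA in 6.75%. The windows of Ccl3, Cxcl12 and Cx3cl1 held none of these letters. A match is a description of the letters and not a binding site shown to be in use, and no match says only that the letters are not in this window.

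Deposited intensities were brought to 1 scale, on which each array had a trimmed mean (2nd to 98th percentile) of 2500, and are given below on that linear scale. Intensities are not comparable between probe sets. Values under 109.5, the 25th percentile of the pooled arrays, were set to that floor before log2 was taken (6.77), and a probe set was tested where it was above the floor on at least 3 arrays. All 13 chemokine probe sets passed, although Cx3cl1 161752_r_at was above the floor on just 3 of the 12 pooled arrays. Differences are in log2 units from limma over 10259 probe sets of the pooled arrays, with Benjamini-Hochberg adjusted p and a threshold of 0.05. The labels do not say whether the 3 pools of a group came from separate experiments. In this fit p thus concerns the spread between pools, which may be technical. In the separate fit with the single brains, p concerns the spread between animals as well.

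Before the deposit, 10 arrays had been scaled to a trimmed mean of 2500, while the 5 single brains and pools 2 and 3 of the treated ischemic group lay between 129 and 210. Among the pools, only pools 2 and 3 of the treated ischemic group were off the common scale. A fit with the deposited scale as a block therefore estimated that group from its pool 1 alone. The description of drug control pool 1 names saline, and that of treated ischemic pool 1 names no drug, against their titles; groups follow the titles, and results are given without these 2 arrays where they change. Markers checked the tissue: all 11 neuron markers on the array were above the floor on every array. The lymphocyte list had 4 to 7 of 13 markers above the floor on an array. The ratio of 3′ to 5′ actin probe sets, a sign of RNA integrity, ran from 1.15 to 2.14.

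**Figure D1:**
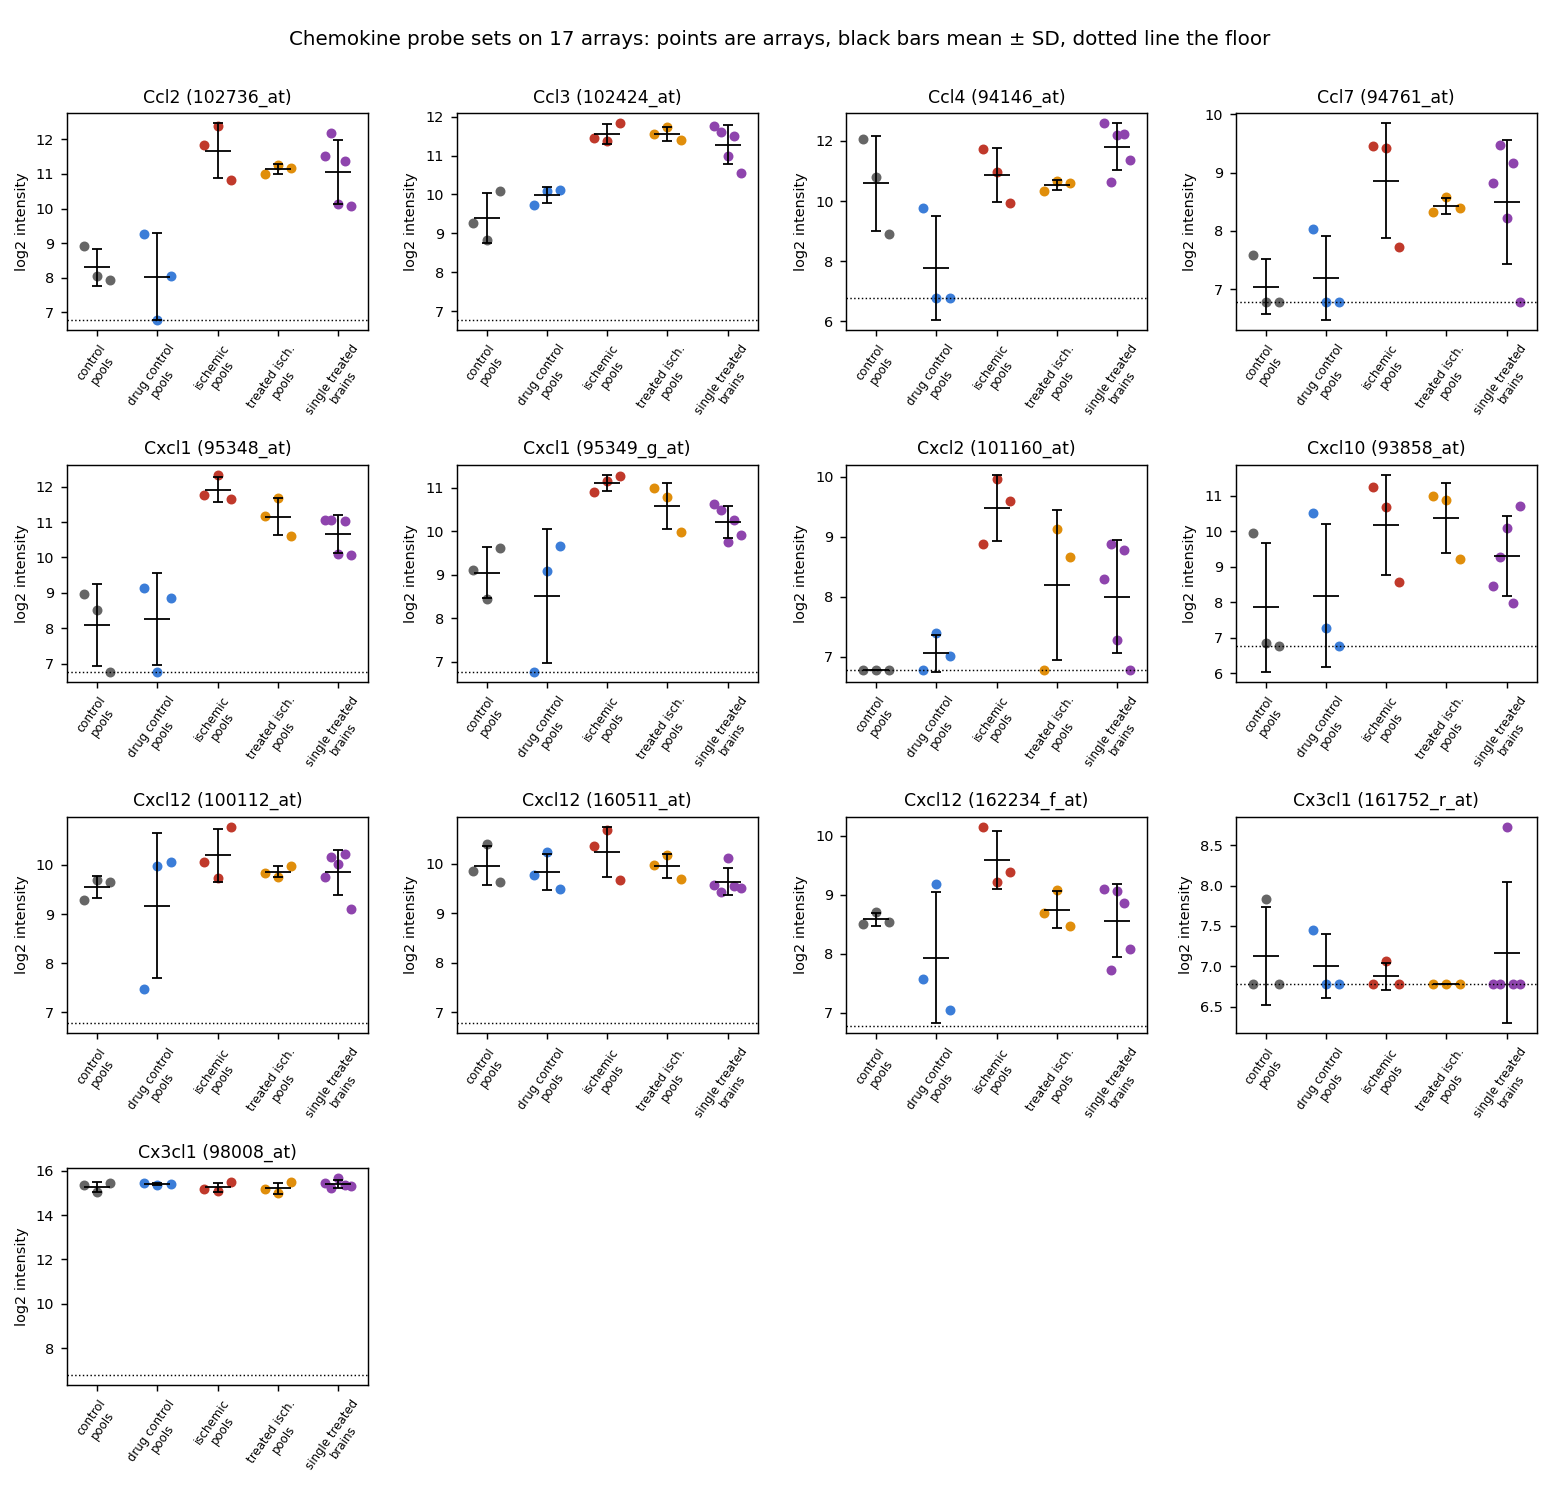
Log2 intensity of each of the 13 chemokine probe sets on the 17 arrays, in 1 panel per probe set, with points for arrays, black bars for the group mean ± SD (n = 3 pools or 5 single brains) and a dotted line at the floor of 6.77. Ccl2, Ccl3 and Cxcl1 (95348_at) are higher on every ischemic array than on every non-ischemic pool, while Cx3cl1 (98008_at) lies near 15 on all arrays.

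Over both drug arms together, 6 ischemic against 6 non-ischemic pools, 3 of the 9 chemokines rose with ischemia: Ccl2, Ccl3 and Cxcl1. Their probe sets were 9.49-fold, 3.65-fold and 10.3-fold higher in the ischemic pools, and none of the 13 chemokine probe sets fell. The folds of Ccl2 and Cxcl1 depend on the floor, since some of their non-ischemic pools were under it. Over the alternatives, values as deposited left out, the log2 difference ran from 2.49 to 3.60 for Ccl2. It ran from 2.62 to 3.58 for Cxcl1 95348_at and from 1.73 to 2.04 for Ccl3. Cxcl2, Ccl7, Cxcl10 and Ccl4 had log2 differences between 1.52 and 2.25 that did not pass the test, and Cxcl12 and Cx3cl1 had smaller ones. The 3 called probe sets out of 13 stand beside 45 of 10259, or 0.439%, called higher over the whole array. In this comparison 4 of the 13 had every ischemic pool above every non-ischemic pool, beside 0.829% of all probe sets tested. The median difference over the 9 genes (brightest probe set of each) was 1.87, beside 0.01 over all probe sets tested. In bulk tissue, more cells of a type and more RNA per cell cannot be told apart in any of these values.

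Ccl3, also known as macrophage inflammatory protein 1 alpha, is a product of activated microglia and macrophages. Its probe set read 619, 453 and 1086 in the control pools and 856, 1087 and 1105 in the drug control pools. It read 2789, 2668 and 3654 in the ischemic pools and 2994, 3393 and 2684 in the treated ischemic pools. Every ischemic pool was thus well above every non-ischemic pool, and the 2 ischemic groups overlapped. The log2 difference over both arms was 1.87 (SE 0.21, limma adjusted p = 0.00334). It was 2.16 (4.47-fold, SE 0.30, adjusted p = 0.0188) without the drug and 1.58 (SE 0.30, adjusted p = 0.166) with it.

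Ccl3 was the only chemokine probe set past the threshold when ischemic and control pools were compared without the drug, 1 of 13, beside 22 of 10259 (0.214%) called higher over the array. That call did not hold when control pool 1 or 2 or ischemic pool 1, 2 or 3 was left out, with adjusted p between 0.0646 and 0.0986 and differences between 1.87 and 2.25. Neither did it hold without the 2 arrays whose labels disagree (adjusted p = 0.0650) or with the compared groups fitted alone (0.286). Over both arms the Ccl3 call held without those 2 arrays (1.81, adjusted p = 0.0458) and without any 1 pool. With the deposited scale as a block, which takes the treated ischemic group from its pool 1 alone, the difference was 1.86.

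Ccl2, the main monocyte attractant, read 479, 267 and 242 in the control pools and 619, 5.9 and 264 in the drug control pools. In the ischemic pools it read 3633, 5346 and 1800, and in the treated ischemic pools 2031, 2455 and 2328. The lowest ischemic pool was well above the highest non-ischemic pool, which was a drug control pool. Over both arms the difference was 3.25 (SE 0.42, adjusted p = 0.00713). It was 3.38 (SE 0.59, adjusted p = 0.0608) without the drug and 3.11 (SE 0.59, adjusted p = 0.165) with it. The call did not hold with the floor at the 20th percentile (3.51, adjusted p = 0.0582). It was lost too with the deposited scale as a block (3.17), which takes the treated ischemic group from its pool 1 alone. It held without the 2 arrays with unlike labels (3.60, adjusted p = 0.0124).

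Cxcl1 was carried by 95348_at, which read 497, 369 and 77.9 in the control pools and 566, 104 and 464 in the drug control pools. It read 3469, 5161 and 3231 in the ischemic pools and 2318, 3253 and 1562 in the treated ischemic pools. Again the groups did not overlap, and treated pools 1 and 3 were below all 3 untreated ischemic pools. The difference over both arms was 3.36 (SE 0.48, adjusted p = 0.0121), with 3.83 (adjusted p = 0.0681) without the drug and 2.89 (adjusted p = 0.426) with it. It fell short of the threshold without the 2 arrays with unlike labels (3.58, adjusted p = 0.0595). It fell short too with the deposited scale as a block (3.38), which takes the treated ischemic group from its pool 1 alone.

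The other probe set of Cxcl1, 95349_g_at, whose suffix marks probes shared by a group of sequences, read 554, 348 and 781 in the control pools and -25.5, 549 and 812 in the drug control pools. It read 1926, 2288 and 2476 in the ischemic pools and 2038, 1764 and 1013 in the treated ischemic pools. Here too every ischemic pool was above every non-ischemic one, by a narrower margin. The difference of 2.07 over both arms (SE 0.45) did not pass (adjusted p = 0.145), so the 2 probe sets of Cxcl1 had the same sign and differed in the call. When drug control pool 1, the array at -25.5, was left out, the probe set passed with 1.63 (adjusted p = 0.0432). Over the 12 pools the 2 probe sets had r = 0.67.

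Cxcl2, the second Cxcr2 ligand, was under the floor in all control pools, at 16.6, -20.9 and 65.9, and read 11.9, 167 and 129 in the drug control pools. In the ischemic pools it read 469, 999 and 779, and in the treated ischemic pools 90.2, 563 and 406. All untreated ischemic pools were above all others except treated pool 2, and treated pool 1 was back under the floor. Against controls at the floor, the mean of the untreated ischemic pools, taken on the log2 scale, was at least 6.53-fold higher (limma adjusted p = 0.114). Arrays with the same replicate number deviated together among the control, drug control and ischemic pools. They did not do so throughout with the treated ischemic pools, which the block on this number covered as well. In that blocked limma fit Cxcl2 passed (2.71, adjusted p = 0.0440) beside Ccl3 (adjusted p = 0.0233). The blocked fit thus called 2 of the 13, beside 0.331% of all probe sets. Cxcl2 also passed without the 2 arrays with unlike labels (adjusted p = 0.0226) and with the deposited scale as a block (0.0143). Over both arms the difference was 1.92 (SE 0.37, adjusted p = 0.0723). It passed over both arms when treated ischemic pool 1 was left out (2.27, adjusted p = 0.00364) or both arrays with unlike labels were (2.20, adjusted p = 0.0124).

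Ccl7, a second ligand of Ccr2, read 192, 28.2 and -30.6 in the control pools and 261, -4.8 and -0.1 in the drug control pools, so 4 of these 6 arrays were under the floor. It read 699, 683 and 211 in the ischemic pools and 320, 382 and 335 in the treated ones. All ischemic pools were above the floor, and ischemic pool 3 alone lay within the range of the non-ischemic pools. The difference over both arms was 1.53 (SE 0.35, adjusted p = 0.181). Without ischemic pool 3 it was 1.81 and passed (adjusted p = 0.0299).

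Considered without the drug, 8 of the 13 chemokine probe sets had all 3 ischemic pools above all 3 control pools, beside 4.07% of all probe sets tested. With the drug the count was 6 of 13, beside 3.75%. None of the 13 passed adjustment with the drug, where 9 of 10259 probe sets (0.0877%) were called higher; at an unadjusted p under 0.05, 6 of the 13 were higher, beside 2.07%. These counts share probe sets of the same gene. The median over the 9 genes was 2.16 without the drug, beside 0.03 over all probe sets tested, and 1.58 with it, beside -0.02.

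**Figure D2:**
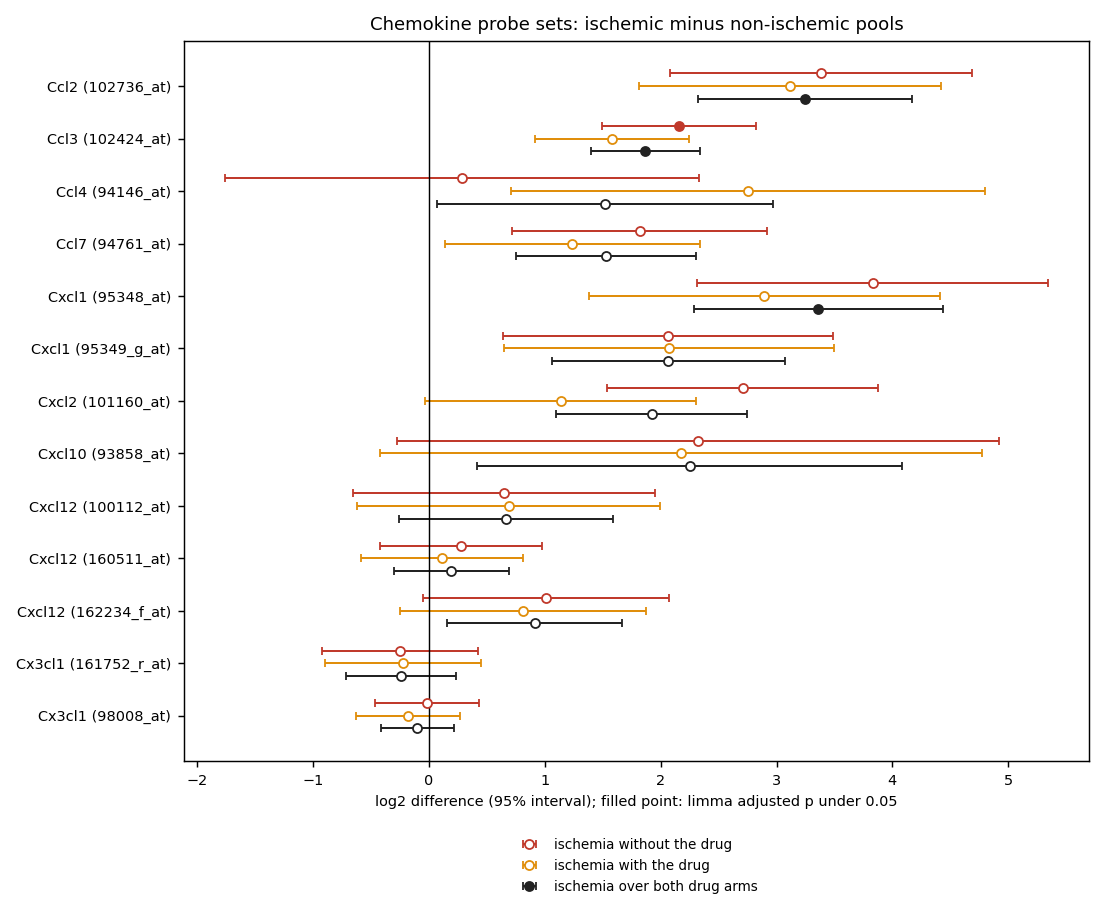
Log2 difference of ischemic minus non-ischemic pools for the 13 chemokine probe sets (horizontal axis, bars are 95% intervals from limma) without the drug, with the drug and over both drug arms, with filled points for an adjusted p under 0.05. Filled points stand at Ccl3 without the drug (2.16) and at Ccl2 (3.25), Ccl3 (1.87) and Cxcl1 95348_at (3.36) over both arms, and the intervals of Cx3cl1 include 0.

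Cxcl10 and Ccl4 had the largest standard errors of the members in the fit of the 12 pools (1.17 and 0.92 for a difference of 2 groups). Cxcl10 read 986, 115 and 16.4 in the control pools and 1459, 156 and 2.8 in the drug control pools. It read 2452, 1663 and 384 in the ischemic pools and 2046, 1873 and 600 in the treated ischemic pools. In all 4 groups the pool numbered 1 was the highest and the pool numbered 3 the lowest, so control pool 1 was above ischemic pool 3. Taken within a number, the ischemic pool was above the control pool by 1.31, 3.85 and 1.81 for numbers 1, 2 and 3, and the treated ischemic pool above the drug control pool by 0.49, 3.58 and 2.45. The difference without the drug was 2.32 with an SE of 1.17, or 0.61 with the replicate number as a block, and passed in neither fit (adjusted p = 1 and 0.384). Over both arms it was 2.25 (SE 0.83, adjusted p = 0.774).

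Ccl4, also known as macrophage inflammatory protein 1 beta, read 4276, 1781 and 481 in the control pools and 879, -303 and -461 in the drug control pools. It read 3406, 1983 and 980 in the ischemic pools and 1287, 1622 and 1545 in the treated ischemic pools. The control and ischemic pools overlapped, with a difference of 0.28 (SE 0.92). The drug control pools were below all treated ischemic pools, with a difference of 2.75 (SE 0.92, adjusted p = 1). Over both arms the difference was 1.52 (SE 0.65, adjusted p = 0.963), so Ccl4 did not show the separation that Ccl3 showed on the same arrays.

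**Figure D3:**
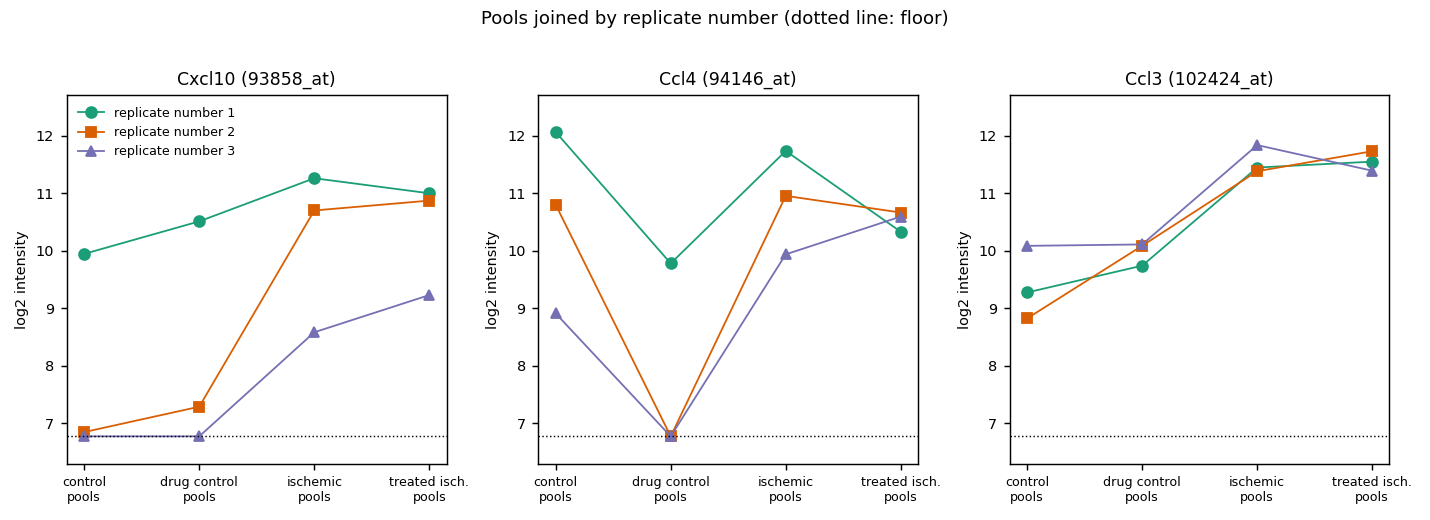
Log2 intensity of Cxcl10, Ccl4 and Ccl3 in the 4 groups of pools, with 1 line for each replicate number and a dotted line at the floor of 6.77. The lines of Cxcl10 keep their order in all groups (means over the 4 groups 10.68, 8.93 and 7.84 for numbers 1, 2 and 3), while those of Ccl3 cross and all rise from the non-ischemic to the ischemic groups.

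Cxcl12 and Cx3cl1, the members made in uninjured brain, had no call in either direction. Cxcl12 100112_at read 624, 831 and 805 in the control pools, 179, 1005 and 1074 in the drug control pools, 1073, 850 and 1760 in the ischemic pools and 916, 869 and 1013 in the treated ischemic pools. Probe set 160511_at ran from 723 to 1350 over the non-ischemic pools and from 815 to 1636 over the ischemic ones. Probe set 162234_f_at, whose suffix marks a sequence family, read 364, 416 and 370 in the control pools and 1143, 597 and 670 in the ischemic pools. The differences over both arms were 0.67, 0.19 and 0.91 in this order (SE 0.42, 0.22 and 0.34), none past the threshold. The 3 probe sets of Cxcl12 had pairwise r between 0.06 and 0.63 over the 12 pools, so they did not rank the pools alike.

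Cx3cl1 98008_at read 41613, 33360 and 45074 in the control pools and 44858, 41454 and 43369 in the drug control pools. It read 36631, 35318 and 46411 in the ischemic pools and 37514, 32227 and 45667 in the treated ischemic pools. The ranges of the 4 groups overlapped, and the difference over both arms was -0.10 with a 95% interval from -0.42 to 0.22. The other probe set of Cx3cl1, 161752_r_at, was above the floor on 3 of 12 pools and gives no level of use.

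The study's stated interest was in inflammatory genes under the antioxidant, and no chemokine probe set passed the test for the drug after ischemia. Over the array this comparison called 1 of 10259 probe sets lower (0.00975%) and none higher. Of the 13 chemokine probe sets, 11 had a lower mean in the treated than in the untreated ischemic pools, beside 52.9% of all probe sets, and 1 was lower at an unadjusted p under 0.05, beside 0.780%. That 1 was Cxcl2, with -1.29 (SE 0.52, 95% interval from -2.46 to -0.12, adjusted p = 1). Without the 2 arrays whose labels disagree, treated pool 1 among them, the Cxcl2 difference was -0.58 (SE 0.34), and with groups taken from the descriptions it was 0.10. With the deposited scale as a block it was -2.71, a value that sets treated pool 1 alone, under the floor, against the ischemic pools.

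For the members that rose with ischemia, none of the drug differences after ischemia passed the test. Ccl3 differed by 0.0015 (95% interval from -0.66 to 0.67), so a fall of 1 log2 unit lies outside its interval. That interval concerns the spread between pools. It allows for neither the unlike label of treated pool 1 nor the other deposited scale of the remaining treated pools. Ccl2 differed by -0.53 (from -1.83 to 0.77) and Cxcl1 95348_at by -0.77 (from -2.28 to 0.75), so a fall of 1 log2 unit lies within both intervals. Cxcl12 162234_f_at read 414, 542 and 354 in the treated pools, all below the 3 untreated ischemic pools, the 1 probe set of 13 so separated beside 2.11% of all (-0.84, SE 0.48, adjusted p = 1). The drug and ischemia comparisons share the ischemic pools, so their values are not independent.

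**Figure D4:**
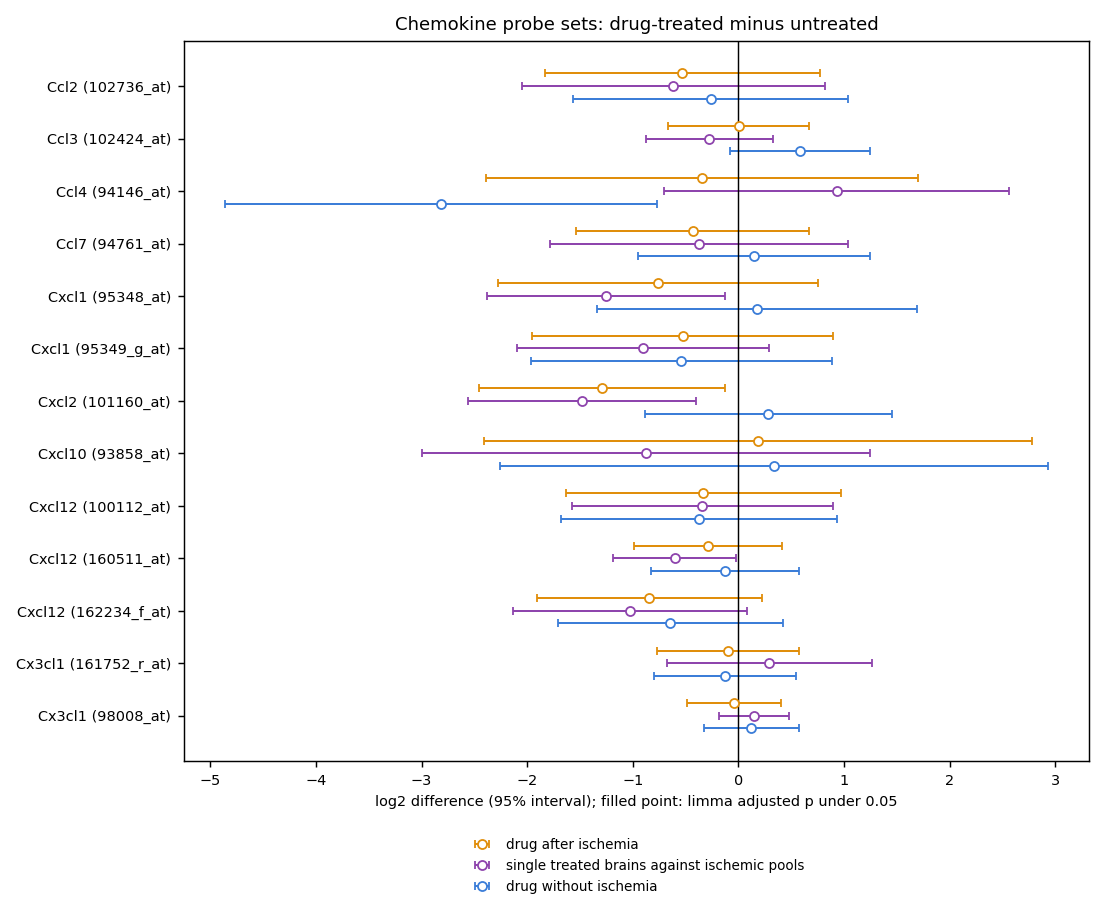
Log2 difference of drug-treated minus untreated samples for the 13 chemokine probe sets (horizontal axis, bars are 95% intervals from limma), after ischemia in pools, after ischemia in single brains against ischemic pools, and without ischemia. No point is filled, that is, none passed an adjusted p of 0.05, and the interval of Ccl3 after ischemia runs from -0.66 to 0.67.

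Without ischemia the drug gave no call among the 13 either, beside 1 of 10259 (0.00975%) called higher and none lower over the array. Ccl4 was the 1 chemokine probe set with an unadjusted p under 0.05, lower in the drug control pools by -2.81 (SE 0.92, adjusted p = 1 in limma), beside 0.858% of all probe sets. Within each replicate number the drug control pool was the lower, at 879 against 4276, -303 against 1781 and -461 against 481, and with the number as a block Ccl4 still did not pass (adjusted p = 0.898). Across numbers, drug control pool 1 overlapped the control pools. Ccl3 was 0.58 higher (SE 0.30, adjusted p = 1). The difference between the ischemia responses with and without the drug passed for none of 10259 probe sets in limma. At an unadjusted p under 0.05 it was higher for 63 and lower for 150 of them, and none of the 13 was among these. Its values were widest for Ccl4, at 2.47 (SE 1.30), and for Cxcl2, at -1.57 (SE 0.74).

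The 5 single treated brains showed the chemokines animal by animal. All were deposited on scales of their own, apart from those of the control and ischemic pools, so array scale and group cannot be told apart in comparisons with these pools. Ccl2 read 2924, 4684, 1128, 2630 and 1085 in brains 11, 12, 13, 14 and 16, and Ccl3 read 3447, 3110, 2021, 2884 and 1507. Cxcl1 95348_at read 2144, 2119, 1099, 2079 and 1077. Brain 16 was lowest and brain 13 next in all 3, while brains 11, 12 and 14 were close together in Ccl3 and Cxcl1. The same was so for Ccl7 (452, 708, 298, 571 and 101) and Cxcl2 (315, 472, 155, 441 and 14.3), in both of which brain 16 was under the floor.

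Cxcl10 ran the other way, at 354, 623, 1083, 251 and 1684, with brain 16 highest and brain 13 next. It also had the widest range of the members above the floor in every brain, 6.70-fold, beside 4.32-fold for Ccl2, 3.87-fold for Ccl4, 2.29-fold for Ccl3, 1.99-fold for Cxcl1 95348_at and 1.34-fold for Cx3cl1 98008_at. Ccl4 followed neither order, at 6194, 1600, 4679, 4775 and 2657, with brain 12 lowest. With 5 brains these orders are descriptions.

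**Figure D5:**
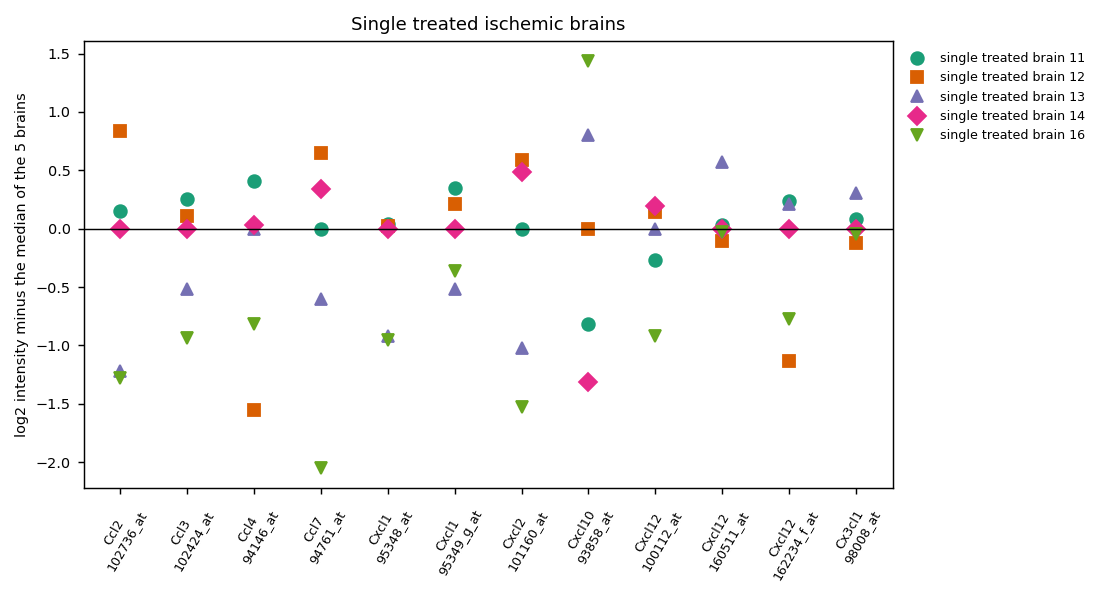
Log2 intensity of 12 chemokine probe sets in the 5 single treated ischemic brains, each minus the median of the 5 (vertical axis), with 1 symbol per brain. Brain 16 is the lowest for Ccl2, Ccl3, Ccl7, Cxcl1 95348_at and Cxcl2 and the highest for Cxcl10.

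Against the drug control pools, the single brains had 4 chemokine probe sets past the threshold, beside 168 of 10227 (1.64%) called higher and 1.56% called lower over the array. They were Ccl4 (4.03, SE 0.73, adjusted p = 0.0204), Ccl3 (1.30, SE 0.27, adjusted p = 0.0329), Cxcl1 95348_at (2.40, SE 0.51, adjusted p = 0.0345) and Ccl2 (3.03, SE 0.65, adjusted p = 0.0360). The fit behind these values used the same residual variance for single brains and for pools of several brains. A single brain may vary more than a pool, so SE and p here are not those of like replicates. Whether this changed the calls was not tested. For Ccl4 only 1 of the 3 drug control pools was above the floor. Its difference ran from 2.65 to 6.56 over the alternatives, values as deposited left out. The saline control pools, not in this test, overlapped the single brains in Ccl4 (log2 8.91 to 12.06 against 10.64 to 12.60). In 5 of the 13 every single brain was above every drug control pool, beside 8.62%. All 4 calls were lost without drug control pool 3 (adjusted p from 0.0726 to 0.109) and without single brain 14 (from 0.0533 to 0.0789). Between 1 and 3 calls were left without any other 1 of these arrays, and the lost ones had adjusted p from 0.0501 to 0.0880. Against the untreated ischemic pools none of the 13 passed, beside 69 of 10227 (0.675%) called lower and 71 (0.694%) called higher. There 3 were lower at an unadjusted p under 0.05, beside 12.5% of all probe sets. Cxcl2 had -1.48 (SE 0.49, adjusted p = 0.136), Cxcl1 95348_at -1.26 (SE 0.51, adjusted p = 0.199) and Cxcl12 160511_at -0.60 (SE 0.26, adjusted p = 0.226).

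Of 19 chemokine receptor genes on the array 14 were tested, and none passed over both drug arms, at the same 0.439% background of calls. The smallest p values were those of Cxcr2, the receptor of Cxcl1 and Cxcl2 (0.77, SE 0.27, adjusted p = 0.713), Ccrl2 (0.50, SE 0.22, adjusted p = 0.998) and Ackr3 (0.23, SE 0.18, adjusted p = 1.00). Cxcr2 was under the floor in all control pools and read between 119 and 402 in the 6 ischemic pools. It was above the floor on 8 pools in all, with a mean log2 of 7.18 in the drug control pools. Its ischemic and non-ischemic pools overlapped. Ccr2, the receptor of Ccl2 and Ccl7, was under the floor on every array, at most 99. Cx3cr1, the microglial receptor of Cx3cl1, read between 631 and 2352 over all pools. Ccr2 and Cx3cr1 were chosen for mention after their values were seen.

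Among other chemokine ligands, 16 of 30 listed genes were on the array and 9 were tested. None passed over both arms. Ccl9 had 1.48 (SE 0.38, adjusted p = 0.289), Xcl1 had 0.75 (adjusted p = 1.00) and Ccl25 had -0.55 (adjusted p = 1.00). Ccl9 passed only in the single brains against the drug control pools (2.33, SE 0.52, limma adjusted p = 0.0411), beside 1.64% of all probe sets called higher there. The median of these 9 was 0.21 over both arms, beside 1.87 for the 9 members and 0.01 for all probe sets tested.

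Of the listed cytokines and NF-kB pathway genes, 20 of 23 on the array were tested. Over both arms 2 rose, beside 0.439% of all probe sets called higher. Nfkbiz, which encodes an inducible nuclear partner of NF-kB, rose by 1.29 (SE 0.17, adjusted p = 0.00809). Il1a, an interleukin 1 gene, rose by 1.86 (SE 0.32, adjusted p = 0.0356). Zfp36, whose product speeds the decay of cytokine messages, had 1.06 (SE 0.20, adjusted p = 0.0569). Tnf and Il1b were under the floor on every array, and Il6 was under it in all 6 non-ischemic pools and between 229 and 962 in the untreated ischemic pools. Il6 was above the floor on 5 pools in all, so not on every treated ischemic pool. Its mean log2 was 7.81 in the treated and 8.98 in the untreated ischemic pools. Tnf, Il1b and Il6 were picked after their values were seen. Of 12 interferon pathway genes tested none passed over both arms, where Socs1 had 1.03 (adjusted p = 0.816), Ifnar2 0.48 (adjusted p = 0.998) and Irf9 0.29 (adjusted p = 1.00). In the single brains Irf7 was lower than in the drug control pools (-1.41, adjusted p = 0.00508) and than in the ischemic pools (-1.15, adjusted p = 0.0279). Nfkbiz was also lower there than in the ischemic pools (-0.95, limma adjusted p = 0.0445). Over the array 1.56% of probe sets were called lower against the drug control pools and 0.675% against the ischemic pools. Array scale and group cannot be told apart in these comparisons.

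Leukocyte and glial markers were read beside the chemokines, and their part in the chemokine differences was not tested. Over both arms 1 of 11 neutrophil markers tested rose, beside 0.439% of all probe sets called higher. It was S100a8 (1.35, SE 0.23, limma adjusted p = 0.0331), a calcium-binding protein of neutrophils and monocytes. Ngp and Mmp8 were under the floor on every array. The summed neutrophil markers ran from 8827 to 14564 in the non-ischemic pools and from 10210 to 15887 in the ischemic ones, which overlap. Of 13 monocyte, macrophage and microglia markers tested 1 rose, at the same 0.439% background of calls. It was Cd14 (1.12, SE 0.17, limma adjusted p = 0.0185), the lipopolysaccharide co-receptor, beside Lyz2 at 0.99 (adjusted p = 0.496) and Cd68 at 0.46 (adjusted p = 0.713). The summed level of the whole list ran from 43444 to 51422 in the non-ischemic and from 51701 to 61043 in the ischemic pools. That gap was small beside the spread within either set. In the single treated brains the sum ran from 43947 to 57658, which overlaps both. The sum adds linear intensities and includes Cd14, whose mean log2 was 12.39 in the non-ischemic and 13.51 in the ischemic pools. It is therefore not separate from the Cd14 call. Over both arms the median difference of the 13 markers tested was 0.14, beside 0.01 over all probe sets. None of the 7 lymphocyte, 12 endothelial, 9 astrocyte, 11 neuron and 6 oligodendrocyte markers tested passed over both arms. Their smallest adjusted p over both arms was 0.318, for the endothelial receptor gene Tie1 (1.09). Gzmb was lower in the single brains than in the ischemic pools (-1.48, limma adjusted p = 0.0445), beside 0.675% of all probe sets called lower there.

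The genes whose pattern over the 12 pools was most like a member's were ranked by Pearson r among 7816 probe sets. For Ccl3 they were Rrad (0.97), Fosb (0.97) and Atf3 (0.96). For Ccl2 they were Fos (0.96), Hspa1b (0.95) and Socs3 (0.95), and for Cxcl1 95348_at Fos (0.95), Jun (0.94) and Hspa1b (0.94). Thus 2 members of the CC and CXC families shared Fos and Hspa1b among their nearest patterns. Within the members the highest r was between Ccl2 and Cxcl1 95348_at (0.96), and Ccl2 and Ccl3 had 0.80. The 12 pools share groups and replicate numbers, so these r are descriptions.

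The remaining members had other neighbours. Cxcl10 was nearest to Tmem214 (0.92), Cebpd (0.91) and Slc1a2 (0.90), and Ccl4 to Tiparp (0.94), Akirin1 (0.94) and Mettl9 (0.86). Cxcl1 95349_g_at was nearest to Mest, Ak4 and Thbd (0.94, 0.93 and 0.91). Each Cxcl12 probe set had 3 neighbours of its own: Zcrb1, Tcf4 and Ptprz1 for 160511_at (0.98, 0.97 and 0.97), Ammecr1l, Wdfy2 and Frrs1 for 100112_at (0.91, 0.90 and 0.89), and Vwf, Cers2 and Micos10 for 162234_f_at (0.88, 0.85 and 0.83). Cx3cl1 98008_at was nearest to Mapre3, Ccnl2 and Uri1 (0.93, 0.92 and 0.92). Cxcl2 and Ccl7 were above the floor on fewer than 9 pools and were not ranked.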

How the data were processed

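The deposited table holds 1 intensity per probe set and array, made by the authors on a linear scale; which software and scaling they used is not given in the sources used here. Values below 0, 15.2% to 19.3% of an array, were kept until the floor was set. Groups were taken from the titles and, for single brains, from the descriptions. Each array was rescaled to a 2-98% trimmed mean of 2500, floored at 109.5 and put on log2. Of 12488 probe sets, 66 controls were left out, and 10855 had 1 gene symbol.

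limma 3.58.1 in R 4.3.3 fitted the 12 pooled arrays together (8 residual and 2.23 prior degrees of freedom) and, apart from them, the 5 single brains with the drug control and ischemic pools (10227 probe sets tested). The fit with the single brains used the same residual variance for them and for the pools, although a single brain may vary more than a pool. The scripts were tested on simulated data. No exact permutation test was made. With 3 pools against 3 such a test cannot give less than 0.1, a bound that does not hold for the larger comparisons. Arrays carry no read depth; their number limits the precision. Alternatives in scaling, floor, filter, grouping, blocks and arrays left out were run for the members only.

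Deviations from group means of arrays with the same replicate number had r between 0.332 and 0.571 in all 9 pairs among control, drug control and ischemic pools, so the numbers pair these groups. In the 9 pairs with a treated ischemic pool r ran from -0.335 to 0.401. It was from 0.059 to 0.213 for number 1, from 0.189 to 0.401 for number 2 and from -0.335 to -0.113 for number 3. The numbers thus do not pair the treated ischemic pools throughout. No 2 arrays were duplicates (highest r 0.980).

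Every probe set of the members is reported. From the other lists, each by its brightest probe set, the genes past the threshold are named, and otherwise up to 3 with the smallest p over both drug arms. Likeness was ranked among probe sets that exceeded the floor on 9 or more pools. The members and the lists were chosen with earlier results of these data known.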

Additional observations from a re-analysis of the deposited data

Results flagged for a closer look

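In groups of 5 arrays, 13 chemokine probe sets were searched for an array far from the other 4, and 2 were found, both in single brain 13. Chance alone flags about 1 in 20 such groups where values differ from each other. Cxcl12 160511_at stood at 10.11 on the log2 scale in single brain 13 (an intensity of 1108), while the other 4 single brains lay between 9.43 and 9.57. Cx3cl1 161752_r_at stood at 8.73 in the same brain (426), while the other 4 were under the floor and thus set to the same value, so that any value above the floor would be picked out and the chance rate does not apply. The brighter Cx3cl1 probe set, 98008_at, was also highest in that brain (51917). The other Cxcl12 probe sets did not single out brain 13, which ranked 3rd lowest of 5 in 100112_at and 4th in 162234_f_at.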

How the results depend on the processing

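Arrays were 3 a group, and members near the floor (Cxcl2, Ccl7) have bounds more than levels. Ccl2 and Cxcl1 also had non-ischemic pools under the floor. Leaving the values as deposited shifted the median of all probe sets by -2.48 with the drug, -1.20 over both arms, -2.51 for the drug after ischemia, -3.68 for single brains against drug control pools and -3.69 against ischemic pools, so its calls follow the array scale. Without the drug, 1 chemokine probe set was called. The count was 0 with values as deposited or the compared groups alone, 4 with the floor at the 40th percentile, 2 with the replicate block, with groups from the descriptions or with the deposited scale as a block, and 0 to 1 with 1 array left out. With the drug the count of 0 became 1 under quantile or median scaling (Ccl3), 2 with values as deposited and 2 with the 40th percentile floor. Over both arms the count of 3 became 0 with values as deposited and stayed between 3 and 4 with 1 array left out. It fell with the scale block, which takes the treated ischemic group from its pool 1 alone. The replicate block, which also covered the treated ischemic pools that the numbers do not pair throughout, gave 4, adding Cxcl2 (limma adjusted p = 0.0257). For the drug after ischemia 0 became 11 with values as deposited. For single brains against drug control pools 4 became 8 with values as deposited, 2 with no filter and 0 to 3 with 1 array left out. Against ischemic pools 0 became 12 with values as deposited and 1 with the 40th percentile floor. The difference between responses and the drug without ischemia gave 0 under all alternatives run. The cause of these changes was not tested beyond the scale shift.

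Among values past the threshold as reported or under the alternative, 12 changed sign, all with values as deposited: Cxcl12 160511_at with the drug (-2.52), Ccl3 for the drug after ischemia (-2.63), in single brains against drug control pools Cxcl12 100112_at (-3.21), Cxcl12 162234_f_at (-2.45), Cxcl2 (-1.15), Ccl3 (-2.58), Ccl2 (-0.42), Cxcl1 95348_at (-1.45), Cxcl1 95349_g_at (-1.76) and Cx3cl1 98008_at (-3.88), and against ischemic pools Ccl4 (-2.95) and Cx3cl1 98008_at (-3.74). Over all members and comparisons, called or not, 1683 of 1802 values kept their sign under the other alternatives. The 10th percentile floor was not run because that percentile was -139.1; the 20th was chosen in its place after the data were seen.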
